A study of Sus scrofa with 220 samples.

Results

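Midkine, encoded by MDK (ENSSSCG00000013260), was followed through the first lineages of the pig embryo, from the morula to the epiblast and hypoblast of the spherical embryo. It is 1 of the 22840 gene entries of the deposited tables and 1 of the 14721 entries that were tested, and its row was found by the Ensembl identifier that carries the symbol. MDK was chosen on earlier results of these same cells, for its higher level in the inner cell mass (ICM) than in the morula and its bias to the ICM and epiblast. The differences between those groups are therefore given below as a description, without a test.

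The data are Smart-seq2 transcriptomes, which cover whole polyadenylated transcripts, of 220 single cells from 28 embryos of artificially inseminated crossbred Large White and Landrace sows, with no genetic or drug treatment in any group. The groups were morula (M, 47 cells, 8 embryos), early blastocyst ICM and trophectoderm (EB ICM, 24 cells, 7 embryos, and EB TE, 28 cells, 10 embryos), late blastocyst epiblast and hypoblast (LB EPI, 25 cells, 4 embryos, and LB HYPO, 36 cells, 5 embryos) and spherical embryo epiblast and hypoblast (Sph EPI, 48 cells, 4 embryos, and Sph HYPO, 12 cells, 3 embryos). Lineage names follow the cell type labels. By the paper's sex calls, both sexes were present in every group but Sph HYPO, whose cells were all male. Most M, EB ICM and Sph EPI cells were male, and most EB TE and LB HYPO cells were female. MDK was not compared by sex. The trophectoderm of late blastocysts was destroyed by immunosurgery, and the epiblast and hypoblast of spherical embryos were dissected by hand, so no TE was sampled after the early blastocyst. Cells held 1012604 to 5696373 counts on genes, with a median of 2006854. The counts of all cells of 1 lineage in 1 embryo were added up, which gave 41 sums of 1 to 19 cells, 6 of them of a single cell. Cells of 1 embryo share their source, so groups were compared over embryos.

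Midkine is a small secreted growth factor that binds heparin. With pleiotrophin (PTN) it forms a family of 2 cytokines that attach to the sulphated sugar chains of cell surface proteoglycans and act through receptors such as PTPRZ1, ALK, LRP1, syndecans and integrins. It was first found as a gene induced by retinoic acid in embryonal carcinoma cells, and it is known for its expression in the embryo and for effects on growth, survival and migration.

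The labels were checked against marker genes before the results were read. The summed TPM (a level corrected for gene length and depth) of 4 EPI markers was 295 to 1163 in LB EPI and 606 to 695 in Sph EPI, against 27 to 117 in LB HYPO and 19.6 to 174 in Sph HYPO. The sum of 6 HYPO markers was 122 to 693 in LB HYPO and 91.9 to 248 in Sph HYPO, against 2.63 to 29.7 in LB EPI and 0 to 6.09 in Sph EPI. SOX2, NANOG, POU5F1, SOX17 and COL4A1 could not be matched to an entry and were not analysed here. The 7 TE markers summed to a median of 43096 TPM in EB TE, but to 305 in the library labelled EB TE from embryo E6-ER, a single cell in which KRT8 stood at 0. The Sph HYPO sums held 17302 to 43066 TPM of the TE markers, mostly of the keratin KRT8, which is also an epithelial gene.

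MDK was scarce in the morula and among the most abundant transcripts of the late blastocyst epiblast. On the TPM scale, its mean level over embryos was 37 ± 18.6 (SD, n = 8) in M, 1164 ± 658 (n = 7) in EB ICM, 225 ± 132 (n = 10) in EB TE, 2414 ± 384 (n = 4) in LB EPI, 276 ± 65.1 (n = 5) in LB HYPO, 1356 ± 213 (n = 4) in Sph EPI and lastly 837 ± 521 (n = 3) in Sph HYPO. Ranked by mean TPM among the 14721 genes tested, MDK was at position 3510 in M, 869 in EB TE, 739 in LB HYPO, 219 in Sph HYPO, 142 in EB ICM, 123 in Sph EPI and 35 in LB EPI. It thus lay within the top 23.8% of genes in M and the top 0.238% in LB EPI.

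**Figure D1:**
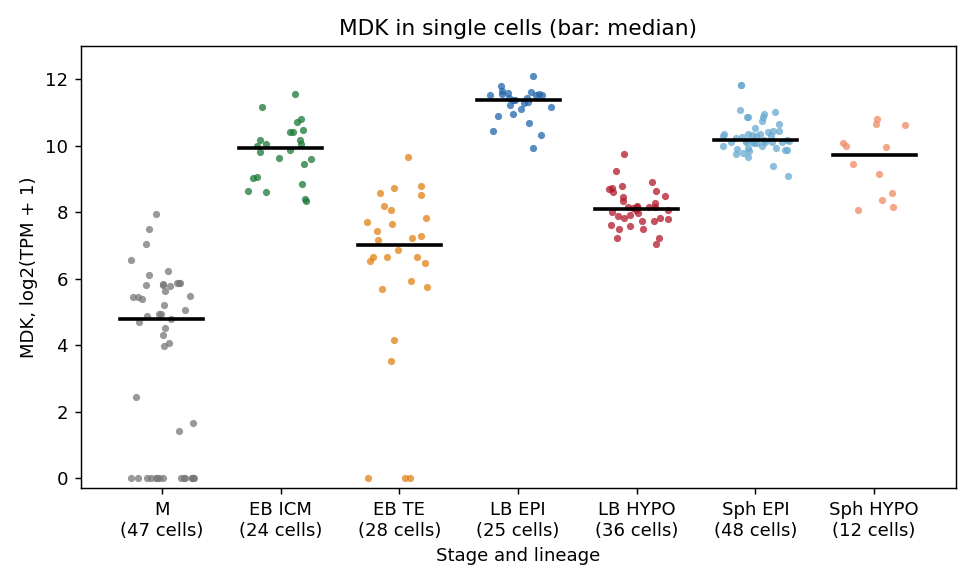
MDK in each of the 220 cells, as log2(TPM + 1) on the vertical axis, by stage and lineage on the horizontal axis, with 1 point per cell and a bar at the group median. The points at 0 are 15 of the 47 M cells and 3 of the 28 EB TE cells, and the LB EPI cells form the highest group, at 980.4 to 4378 TPM.

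The plot of single cells shows where the transcript was detected. MDK exceeded 1 TPM in 32 of 47 M cells (68.1%, exact Clopper-Pearson 95% interval 52.9 to 80.9%), in 25 of 28 EB TE cells (89.3%, 71.8 to 97.7%) and in every cell of the other 5 groups. The 15 M cells without it had no MDK count at all. Their median depth was 2392493 counts, against 2049550 in the other M cells, but the shallowest of them held only 1370410 counts. At that median depth a count of 0 allows a level of up to 1.25 CPM (counts scaled to depth), and more in a shallower cell. The part of depth in these zeros was not tested. The 3 TE cells at 0 had a lower median depth than the rest, 1511816 counts against 2067476, and all came from embryo AB. Intervals and limits cover counting error only, since the reads carry no molecular identifiers. Cells of 1 embryo are not independent and the cells at 0 were unevenly spread over embryos, so the intervals are too narrow for the stage and are not used to compare groups.

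Cells within a group differed most in the morula. The coefficient of variation of TPM across cells was 134% in M and 100.2% in EB TE. It was 61.7% in EB ICM, 62.5% in Sph HYPO, 44.7% in Sph EPI, 46.4% in LB HYPO and 29.4% in LB EPI, the group with the highest level. The M cells at 0 were spread over 5 of the 8 embryos, with 6 of 8 cells in embryo S, 4 of 10 in T, 3 of 6 in U, 1 of 7 in X and 1 of 3 in Y. In embryo T the other cells reached 245 TPM, the highest value of any M cell. In the ICM, the 6 cells of embryo AC had 1009 to 3022 TPM and the 4 cells of embryo AF began at 325 and all lay below them, so these embryos did not overlap.

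For the comparison between embryos, levels are CPM of the summed counts after TMM scaling, and log2 levels are log2(CPM + 1). The 8 M sums lay between 4.47 and 33.7 CPM, with a median of 17.7. The 7 EB ICM sums lay between 203 and 964 CPM, with a median of 427. The 10 EB TE sums lay between 44 and 188 CPM, with a median of 82.3. All EB TE sums were thus above all M sums and below all EB ICM sums. The 4 LB EPI sums were 816, 1239, 1353 and 1514 CPM. The 5 LB HYPO sums were 78.5, 117, 151, 156 and 185 CPM, which falls within the range of EB TE. The 4 Sph EPI sums were close together, from 631 to 809.7 CPM, or 9.30, 9.48, 9.55 and 9.66 on the log2 scale. The 3 Sph HYPO sums were far apart, at 667 in embryo C, 499 in embryo F and 138 in embryo E, so that 1 lay within the range of Sph EPI and 1 within that of LB HYPO.

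The order of the mean log2 levels was LB EPI (10.23 ± 0.39), Sph EPI (9.50 ± 0.15), EB ICM (8.89 ± 0.78), Sph HYPO (8.49 ± 1.20), LB HYPO (7.06 ± 0.48), EB TE (6.42 ± 0.68) and M (4.03 ± 0.92), each with the SD over the embryos given above. Of the 6 pairs of neighbours in this order, 2 did not overlap. LB EPI was above Sph EPI by 0.73 (pooled SD 0.29), and EB TE was above M by 2.39 (pooled SD 0.81). The other 4 pairs overlapped, with differences of 0.61 between Sph EPI and EB ICM, 0.40 between EB ICM and Sph HYPO, 1.43 between Sph HYPO and LB HYPO, and 0.64 between LB HYPO and EB TE.

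**Figure D2:**
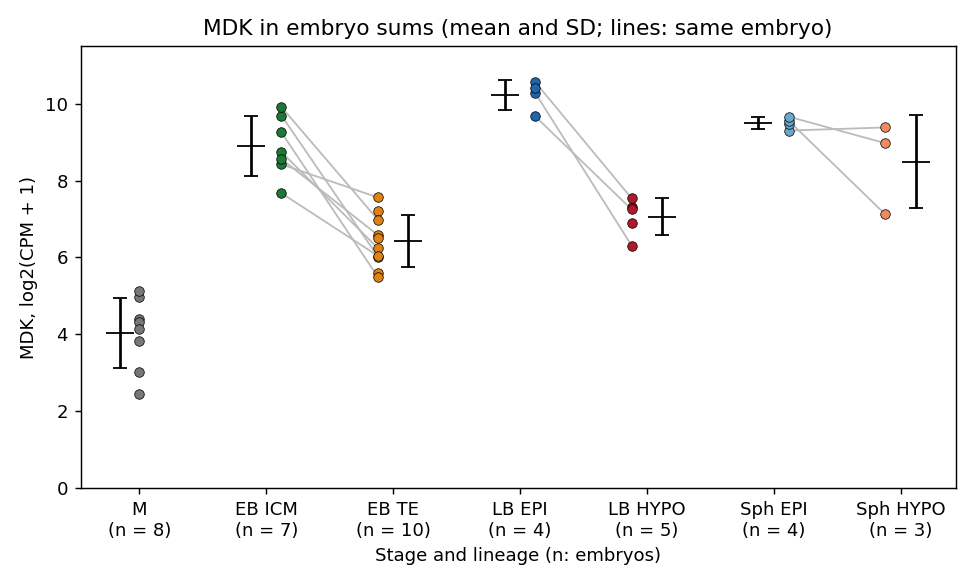
MDK in the 41 embryo sums, as log2(CPM + 1) on the vertical axis, by stage and lineage, with 1 point per embryo and the mean and SD beside the points. Grey lines join 2 lineages of the same embryo: all 7 lines from EB ICM to EB TE and all 3 from LB EPI to LB HYPO go down, while of the 3 at the Sph stage the line of embryo C is almost level.

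The 4 differences behind the choice of MDK had these sizes. EB ICM exceeded M by 4.86 on the log2(CPM + 1) scale, a 29.1-fold difference, with no overlap of embryos and none of cells, since the lowest ICM cell (325 TPM) was above the highest M cell (245 TPM). The difference was 6.09 on the scale of mean log2(TPM + 1), and on log2(CPM + 1) it was 5.02 among cells of the first 4 of 8 pools and 4.90 in the last 4 pools. Pools here are the 8 prefixes of the sample titles, split in sorted order, and the labels do not say what the prefixes stand for. Across all genes, 2.45% passed the adjusted threshold of 0.05 in this comparison. EB ICM exceeded EB TE by 2.47 or 5.54-fold, with no overlap of embryos, while 5 of 28 TE cells were at or above the lowest ICM cell. The difference was 2.84 in the first 4 pools and 1.86 in the last 4, and 0.754% of all genes passed. LB EPI exceeded LB HYPO by 3.17 or 9.01-fold, with no overlap of embryos or of cells (lowest EPI cell 980.4 TPM, highest HYPO cell 860.1 TPM). This was 2.84 and 3.10 in the 2 sets of pools, and 1.92% of all genes passed. Nothing is read from these shares for MDK, since the contrasts served to choose it.

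The difference at the spherical stage was smaller and uneven. Sph EPI exceeded Sph HYPO by 1.01 on the log2(CPM + 1) scale, or 2.01-fold, with a pooled SD of 0.86, and the embryos overlapped. Without the Sph HYPO sum of embryo E, which is 2 cells, the difference was 0.32. Of 12 Sph HYPO cells, 8 were at or above the lowest Sph EPI cell of 541 TPM. The bias to the epiblast for which MDK was chosen was thus not present in every embryo at this stage. The difference was 0.10 in the first 4 pools and 1.48 in the last 4 pools. Both Sph HYPO cells of embryo E came from the last 4 pools and both of embryo C from the first 4, so that for those 2 embryos pool and embryo cannot be told apart. In this comparison 1.13% of all genes passed. The median fitted log2 fold change over all genes was 0.57. That value comes from the fit to these 2 groups and is not on the log2(CPM + 1) scale of the 1.01 for MDK.

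Embryos that gave both lineages allow the same differences to be read within an embryo. MDK was higher in ICM than in TE in 7 of 7 embryos, by 0.85 in embryo AE to 3.76 in embryo AD, with a median of 2.51 on the log2(CPM + 1) scale. It was higher in EPI than in HYPO in 3 of 3 late blastocysts, by 2.43 in AN, 3.02 in AO and 3.96 in AP. In spherical embryos it was higher in EPI in 2 of 3, by 2.43 in embryo E and 0.70 in embryo F, and the difference was -0.08 in embryo C. In embryo C both Sph HYPO cells, at 1024 and 1584 TPM, lay within the range of that embryo's 14 EPI cells, 541 to 1998 TPM. In embryo E the HYPO cells had 267 and 282 TPM, below all 4 EPI cells, which began at 1133 TPM. In embryo F the 8 HYPO cells covered 327 to 1783 TPM, and the 19 EPI cells 959.9 to 3631 TPM.

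Markers of the other lineage varied among the same Sph HYPO cells. The 4 EPI markers summed to 259 and 89.4 TPM in the 2 cells of embryo C, to 36.6 and 2.65 TPM in the 2 cells of embryo E, and to 0.731 to 148 TPM in the 8 cells of embryo F. The sum reached 139 to 1399 TPM in the Sph EPI cells. NODAL, an epiblast marker that encodes a TGF-beta family ligand, had a mean of 70.4 ± 91.7 TPM in Sph HYPO (SD, n = 3). It ranged from 0 to 174 TPM over those embryos, and 6 of 12 cells exceeded 1 TPM. In Sph EPI its mean was 88.3 ± 24.6 TPM (n = 4), with 39 of 48 cells above 1 TPM. The other 3 EPI markers were lower in Sph HYPO. DNMT3B had means of 22.4 TPM there and 463 TPM in Sph EPI. PRDM14 and SALL2 were near 0 in Sph HYPO, at 0.0239 and 0.00662 TPM. The HYPO markers were present in all 12 cells, at 77.6 to 390.0 TPM. The TE markers varied as well, and their sum was mostly keratin. In Sph HYPO the mean was 25232 TPM for KRT8 and 4097 TPM for KRT18. DAB2, which the paper also counts among HYPO genes, had a mean of 178 TPM there and GATA3 of 24.8 TPM. GATA2 and TFAP2C were near 0, at 0.00717 and 0.164 TPM, and CDX2 was at 0. The TE markers summed to 31914 and 24542 TPM in embryo C and to 19105 and 15500 TPM in embryo E. In embryo F the cells with 1783, 1623, 1093 and 1005 TPM of MDK held 57235, 62513, 70511 and 52904 TPM of TE markers, and those with 697, 563, 381 and 327 TPM of MDK held 37015, 17575, 29359 and 17415 TPM. In embryo F the 4 cells with the most MDK thus also had the highest TE marker sums, which are mostly KRT8. Their EPI markers summed to 141, 148, 134 and 18.7 TPM in the same order, and those of the other 4 cells to 21, 119, 95.6 and 0.731 TPM. In embryo C the cell with more MDK, at 1584 TPM, had the lower TE sum, 24542 TPM, and the lower EPI sum, 89.4 TPM. The part of these markers in the MDK level was not tested.

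MDK was tested in the 4 comparisons that were not themselves used to choose it. The test was edgeR's quasi-likelihood test on embryo sums, with Benjamini-Hochberg adjustment over all genes. MDK passed the threshold of 0.05 in 0 of the 4, with unadjusted p-values under 0.05 in all 4. Of all 14721 genes, 3075 had an unadjusted p under 0.05 in M against EB TE and 3328 in EB ICM against LB EPI. There were 1999 in LB EPI against Sph EPI and 1402 in LB HYPO against Sph HYPO. DESeq2 called MDK in 2 and limma in 1, and the shares of all genes called by these methods were not taken. An exact 2-sided permutation test of the log2 level of MDK alone, which asks about 1 gene and not about all of them, was run beside it and adjusted over the 4 comparisons. These comparisons share groups with each other and with the differences above. Each group in them thus also served to choose MDK, and that choice can favour a difference here. The p-values, those of the permutation test included, make no allowance for the choice. Nothing in the labels ties embryos to sows, so p-values measure the spread between these embryos.

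Between the morula and the trophectoderm, MDK was higher in TE by 2.38 on the log2 scale of the fit (SE 0.58, 5.20-fold), and the adjusted p was 0.0501. All 8 M sums were below all 10 TE sums. The exact permutation p was 4.57e-05, the smallest that 8 against 10 embryos can give, and 1.83e-04 after adjustment over the 4 comparisons. Of all genes, 0.808% passed in this comparison, and MDK was at position 122 by p. Without the TE library of embryo E6-ER, whose TE marker sum was below all EB ICM sums, the adjusted p was 0.0267. The log2 difference was then 2.39 in the same direction. DESeq2 gave an adjusted p of 1.89e-07, and the 12 alternatives ranged up to 0.252. Within the first 4 and the last 4 pools, the fitted values of M minus TE were -2.23 and -2.75. Most M cells were called male and most TE cells female, so group and sex cannot be fully told apart here.

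Between the ICM and the LB epiblast, MDK was higher in LB EPI by 1.23 on the log2 scale (SE 0.36, 2.34-fold), with an adjusted p of 0.0874. Of the 7 ICM sums, 5 were below all LB EPI sums, and those of embryos AC and AI, at 824 and 964 CPM, were above the lowest LB EPI sum of 816 CPM. The exact permutation p was 0.0182, and 0.0364 adjusted over the 4 comparisons. In this comparison 2.91% of all genes passed. The ICM sum of embryo AI was a single cell, and without it the adjusted p was 0.0296 and ICM minus LB EPI was -1.50. ICM minus LB EPI was -0.83 in the first 4 pools alone and -1.84 in the last 4, where the adjusted p was 0.0371. Alternatives ranged from that value to 0.288.

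From the late blastocyst to the spherical embryo, LB EPI was above Sph EPI by 0.83 on the log2 scale (SE 0.22, 1.78-fold), with an adjusted p of 0.198. All 4 LB EPI sums were above all 4 Sph EPI sums, which gave an exact permutation p of 0.0286, the smallest possible here, and 0.0381 after adjustment over the 4 comparisons. Among all genes, 0.156% passed. The values were 0.50 and 1.02 within the 2 sets of pools. DESeq2 gave an adjusted p of 0.0104, and the alternatives reached 0.728.

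In the hypoblast of the same stages, LB HYPO minus Sph HYPO was -1.74 on the log2 scale (SE 0.54, 3.35-fold), with an adjusted p of 0.379. Of the 5 LB HYPO sums, 2 were below all 3 Sph HYPO sums, and the others overlapped embryo E. The exact permutation p was 0.143 for this comparison, raw and adjusted, and 5 against 3 embryos can reach 0.0357. Among all genes, 0.163% passed. The value was -2.38 in the first 4 pools alone and -0.76 in the last 4. Adjusted p-values ranged from 0.0612 to 1 over the alternatives. Since most LB HYPO cells were called female and all Sph HYPO cells male, stage and sex cannot be fully told apart here.

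The genes around the growth factor were read from 3 lists. Of 18 binding partners and relatives of midkine, 13 were matched and tested, while ALK, LRP1, LRP2, SDC4 and CSPG5 were not analysed here. Over the 8 comparisons, 2 of 104 tests passed (1.92%) and 28 had an unadjusted p under 0.05 (26.9%), against 1.29% and 18% of all gene tests in the same comparisons. DESeq2 called 12 of the list's tests and limma 4, but the shares of all gene tests called by these methods were not taken. The median log2 fold change of the list lay between -0.47 and 0.91 in the 8 comparisons, or between -0.83 and 0.91 with genes that were at 0 in a group set to a limit of 3 counts. Over all genes it lay between -0.11 and 0.57.

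**Figure D3:**
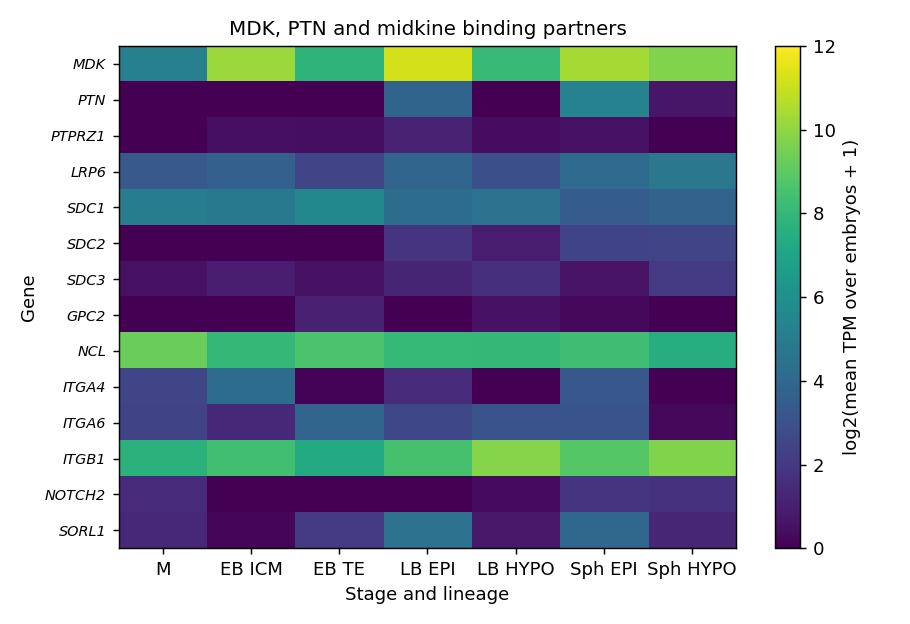
MDK and the 13 matched binding partners and relatives, as log2(mean TPM over embryos + 1) in colour from 0 to 12, with genes in rows and the 7 groups in columns. Only the MDK, NCL and ITGB1 rows are above 100 TPM in every group bar M, where MDK is at 37, and PTN is at 0 in 4 groups.

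PTN, the sister gene of MDK, had another pattern. It had 0 counts in M, EB ICM, EB TE and LB HYPO. In LB EPI it reached 53.8 TPM in 1 embryo, with 1 of 25 cells above 1 TPM, and was at 0 in the other 3 embryos. In Sph EPI it exceeded 1 TPM in 39 of 48 cells, with 22.1 to 62.8 TPM over the 4 embryos and a mean of 38.6 ± 17.6 (SD, n = 4). Sph HYPO had a mean of 0.649 TPM from 1 of 12 cells. On the TPM scale the mean of MDK in Sph EPI, 1356, was well above that of PTN. Sph EPI was not called against Sph HYPO for PTN by edgeR (log2 fold change 5.85, SE 1.91, adjusted p = 0.203).

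The receptors on the list differed in level. ITGB1, the integrin beta 1 chain, was the most abundant partner in 5 of the 7 groups, with mean levels of 159.5 TPM in EB TE to 896 TPM in LB HYPO. It was lower in LB EPI (367 ± 111 TPM, n = 4) than in LB HYPO (896 ± 263 TPM, n = 5), with a log2 fold change of -1.40 (SE 0.29, edgeR adjusted p = 0.026), a call that was lost with the embryo as a block (0.0982). NCL, nucleolin, a nucleolar protein that also binds midkine at the cell surface, fell from 618 ± 260 TPM in M (n = 8) to 252 ± 120.3 TPM in EB ICM (n = 7), with a log2 fold change of -1.28 (SE 0.29, adjusted p = 0.0218). No other partner passed in edgeR as fitted here, while alternatives called ITGA4, ITGA6, NOTCH2, PTN or SORL1 in some comparisons, with a lowest adjusted p of 2.10e-09 for ITGA4 in Sph EPI against Sph HYPO.

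The remaining partners were at low levels. SDC1, a syndecan that carries heparan sulphate chains, had mean levels of 10.4 TPM in Sph EPI to 46.8 TPM in EB TE, and the Wnt co-receptor LRP6 of 4.74 to 26.3 TPM. SORL1, a sorting receptor, had 21.6 ± 14.9 TPM in LB EPI and 14.9 ± 7.09 TPM in Sph EPI (n = 4 each), and 0.138 to 3.05 TPM in the other groups. ITGA4, the integrin alpha 4 chain, had a mean of 17.9 TPM in EB ICM and 8.57 TPM in Sph EPI, and stood at 0 in Sph HYPO. SDC2 was at 0 in M, EB ICM and EB TE and had means of 0.906 to 4.77 TPM later. PTPRZ1, a receptor phosphatase for both growth factors, did not exceed a mean of 1.22 TPM in any group. GPC2 and SDC3, which carry heparan sulphate chains, reached means of at most 1.12 and 3.16 TPM, NOTCH2 2.54 TPM, and ITGA6, an integrin alpha chain, 14.2 TPM in EB TE.

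Of 26 enzymes that build, sulphate or trim heparan and chondroitin sulphate, the chains that midkine binds, 21 were matched and 20 tested. In the 8 comparisons 1 of 160 tests passed (0.625%, against 1.29% of all gene tests), with 31 unadjusted p-values under 0.05 (19.4% against 18%), 11 calls by DESeq2 and 6 by limma. Both edgeR shares are near or below those of all genes, and no share over all genes was taken for DESeq2 or limma. The median log2 fold change ranged from -0.69 to 0.50, or -0.73 to 0.68 with limits for genes at 0 in a group. The call was SULF1, which removes sulphate groups from heparan sulphate outside the cell. It had 0 counts in M, EB ICM and EB TE, and 11.9 to 51.1 TPM in LB EPI (mean 32.2 ± 16.1, n = 4). Against a limit of 3 counts over the ICM cells, SULF1 was at least 881-fold higher in LB EPI (edgeR adjusted p = 0.0063), and all 6 alternatives that gave a value called it. It exceeded 1 TPM in 12 of 25 LB EPI cells, 34 of 48 Sph EPI cells and 7 of 12 Sph HYPO cells, but 2 of 36 LB HYPO cells.

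The other enzymes did not pass in edgeR and had no common direction, with 10 of the 20 on the list higher in LB EPI than in LB HYPO and 11 of 20 higher in Sph EPI than in Sph HYPO. EXT1, which extends the heparan sulphate chain, had a mean of 86.6 ± 56.8 TPM in LB HYPO (n = 5) and 142 ± 9.12 TPM in Sph HYPO (n = 3), against 31.8 ± 36.5 and 5.94 ± 6.38 TPM in LB EPI and Sph EPI (n = 4 each). The log2 fold change of Sph EPI against Sph HYPO was -4.62 for EXT1 (SE 1.48, adjusted p = 0.196). CHSY1, a chondroitin sulphate synthase, had means of 2.68 TPM in LB EPI and 30.1 TPM in LB HYPO (log2 fold change -3.84, SE 0.96, adjusted p = 0.0655). CHPF, its polymerising partner, had 1.13 and 37.6 TPM in the same groups (log2 fold change -5.08, SE 1.23, adjusted p = 0.0555), but 11.6 TPM in Sph EPI and 10.7 TPM in Sph HYPO. CHSY1 was also present in EB ICM, at a mean of 39.7 TPM. GLCE, the epimerase that converts glucuronic to iduronic acid in the chain, was the most abundant enzyme of the list in EB ICM, with a mean of 72.4 TPM.

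Retinoic acid, the first known inducer of MDK, is made by ALDH1A enzymes, held by CRABP proteins, broken down by CYP26 enzymes and read by RAR and RXR receptors. Of 18 genes of this system, 16 were matched and 13 tested, and 1 of 104 tests passed (0.962%, against 1.29% of all gene tests), with 22 unadjusted p-values under 0.05 (21.2% against 18%), 10 calls by DESeq2 and 5 by limma. Both edgeR shares are close to those of all genes, and none was taken over all genes for DESeq2 or limma. The list's median log2 fold change ranged from -0.60 to 1.47, or -0.68 to 1.97 with limits for genes at 0. The call was CRABP2, which carries retinoic acid to its receptors. It had a mean of 176 ± 67.9 TPM in LB EPI (n = 4) and 1.23 ± 1.28 TPM in LB HYPO (n = 5), where 4 of 36 cells exceeded 1 TPM. The log2 fold change of CRABP2 between these 2 groups was 7.09 (SE 1.21, edgeR adjusted p = 0.00946). With the embryo as a block the adjusted p was 0.134, so that the call was lost. The mean of CRABP2 was 149.5 TPM in M, where MDK was lowest, 125 TPM in EB ICM and 75.9 TPM in EB TE. It was 204 TPM in Sph EPI and 50.8 TPM in Sph HYPO. The low level of CRABP2 was thus that of LB HYPO, not of all groups outside the epiblast.

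CYP26A1, which degrades retinoic acid, ran the other way in level and did not pass. Its mean was 295 ± 306 TPM in LB HYPO (n = 5) and 143 ± 248 TPM in Sph HYPO (n = 3), against 3.86 and 0.0483 TPM in LB EPI and Sph EPI, and 83.7 ± 79.8 TPM in M (n = 8). The log2 fold change of LB EPI against LB HYPO was -6.39 for CYP26A1 (SE 1.93, adjusted p = 0.137). ALDH1A2, which makes retinoic acid, had a mean of 13.9 ± 15.3 TPM in EB ICM (n = 7) and 4.16 TPM in EB TE, and was at 0 in the 4 later groups. RARG, a retinoic acid receptor, had a mean of 39.7 ± 27.9 TPM in Sph EPI (n = 4), where all 48 cells exceeded 1 TPM, and of 0.117 to 5.18 TPM elsewhere. DHRS3, which returns retinal to retinol, had a mean of 0.983 TPM in M and 22 to 69.7 TPM in the other groups. The heat map of both lists shows these levels side by side.

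**Figure D4:**
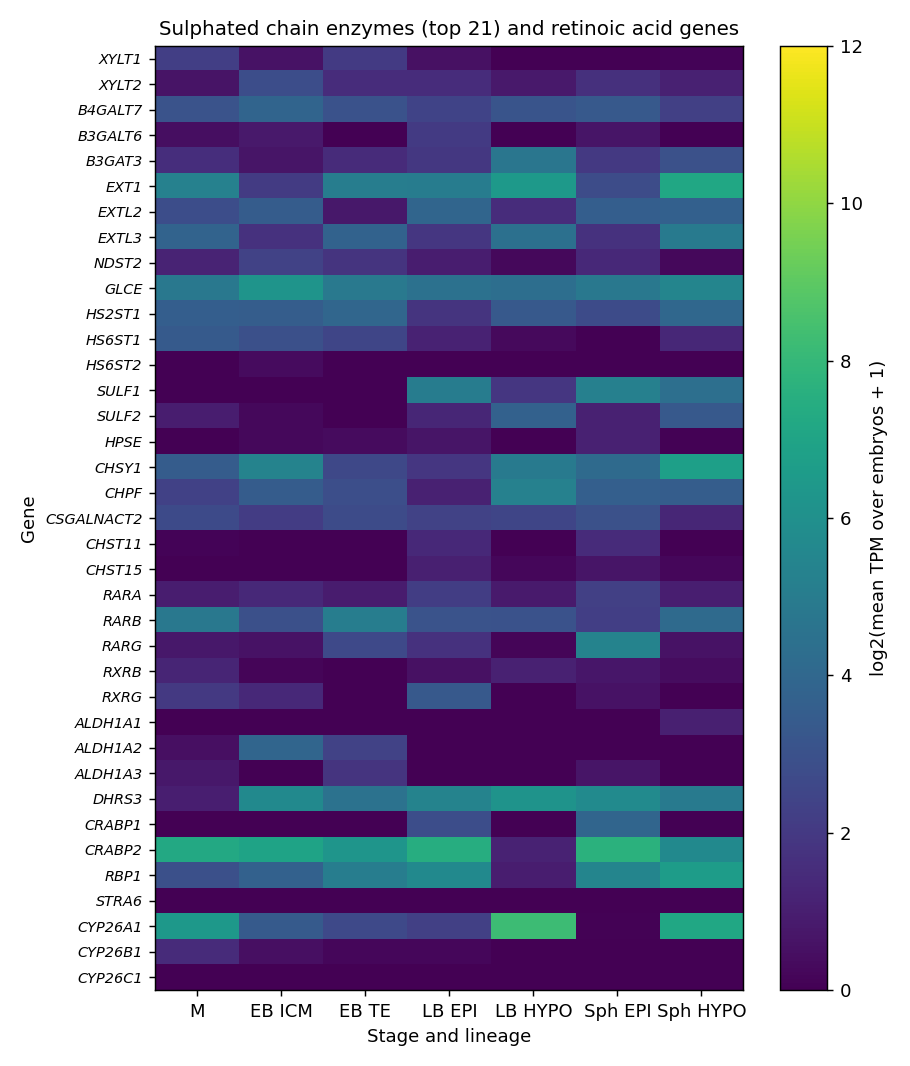
The 21 matched enzymes of heparan and chondroitin sulphate (rows XYLT1 to CHST15) and the 16 matched genes of the retinoic acid system (rows RARA to CYP26C1), as log2(mean TPM over embryos + 1) in colour from 0 to 12, by group in columns. SULF1 is dark in the first 3 columns, and CRABP2 and CYP26A1 have opposite colours in LB EPI and LB HYPO, with means of 176 and 3.86 TPM against 1.23 and 295 TPM.

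The genes whose levels followed MDK most closely were found by Spearman's rho across the 41 embryo sums, over 9410 genes with a symbol. The sums share embryos and differ in cell number and depth, so rho is a description. The highest was PRDX2 (0.86), which with PRDX1 (0.82) encodes peroxiredoxins that reduce peroxides. Next were LAPTM4B (0.83), a lysosomal membrane protein, SMS (0.82), spermine synthase, LXN (0.82), a carboxypeptidase inhibitor, MLF2 (0.81), MOV10 (0.78), an RNA helicase, and PSME2 (0.78), a proteasome activator subunit. The ninth gene had 0.77, and the median over all compared genes was 0.07. By Pearson's r instead, 5 of these 8 remained among the top 8.

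All 8 had a lower mean TPM in M than in EB ICM, and all 8 a higher mean in LB EPI than in LB HYPO, as MDK does and as the ranking favours. Their levels nonetheless differed widely. LXN went from a mean of 1.96 TPM in M to 296 TPM in EB ICM and 1178 TPM in LB EPI, whereas MLF2 had means of 173, 612 and 779.7 TPM in the same groups. SMS had 1613 TPM in LB EPI and 576 TPM in Sph EPI, and MOV10 621 and 167 TPM. PSME2 had 78.5 TPM in LB EPI and 146 TPM in Sph EPI, the reverse order of MDK.

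The lowest rho belonged to SLC34A2 (-0.85), a sodium-dependent phosphate transporter, SEPTIN7 (-0.84), a septin of the cytoskeleton, NCOA7 (-0.80) and BLVRB (-0.80), a biliverdin reductase. SLC34A2 had a mean of 597 ± 231 TPM in M (n = 8) and 165 ± 178 TPM in EB TE (n = 10), against 5.77 TPM in EB ICM, 0.0192 TPM in LB EPI and 0.0848 TPM in Sph EPI. SEPTIN7 had 1654 TPM in M, 577 TPM in EB ICM and 273 TPM in LB EPI.

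**Figure D5:**
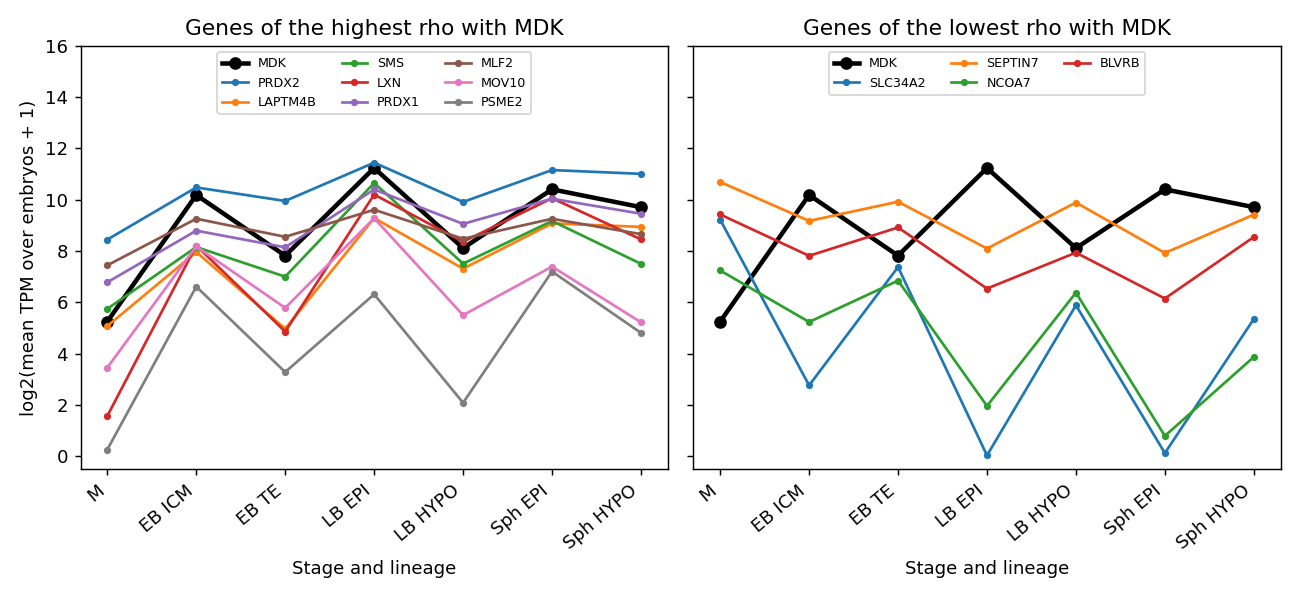
MDK (black) with the 8 genes of the highest rho (left) and the 4 of the lowest rho (right), as log2(mean TPM over embryos + 1) on the vertical axis, by stage and lineage on the horizontal axis. The genes on the left peak with MDK in LB EPI, except PSME2, which is higher in Sph EPI, and those on the right are lowest in LB EPI or Sph EPI.

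The neighbours of MDK in the genome did not share its level. In the gene order of the RefSeq annotation of Sscrofa11.1, a later assembly than that of the counts, MDK lies on chromosome 2 between CHRM4 and DGKZ, with AMBRA1 and CREB3L1 beyond them among genes with a symbol in the files. None of the 4 exceeded a mean of 6.18 TPM in any group, and their rho with MDK over the 41 sums was -0.32 for AMBRA1, 0.06 for DGKZ, 0.33 for CHRM4 and 0.23 for CREB3L1. CHRM4 and CREB3L1 had 0 counts in most groups.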

How the data were processed

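The authors trimmed reads with scythe and sickle, aligned them to the pig genome with HISAT2 2.1.0, counted uniquely mapped reads on Ensembl genes with HTSeq and removed poor cells. The tables deposited hold raw counts for each gene in each cell, without normalisation, and TPM values derived from those counts by the authors. Fold changes come from counts, and levels between genes from TPM. As Smart-seq2 reads have no molecular identifiers, duplicates from amplification are counted.

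Groups came from the cell type labels. The embryo was read from the letters of each cell identifier. In this way 1 morula cell had no embryo and was left out of sums, and the embryo of 2 cells is less certain. Symbols came from a table of Ensembl names covering 11437 identifiers. The authors' added NODAL entry was used for NODAL.

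A gene was kept if its TPM was over 1 in 3 or more cells. Sums were compared with glmQLFit and glmQLFTest of edgeR 4.0.16 (TMM, R 4.3.3), Benjamini-Hochberg threshold 0.05, only the 2 groups compared in each fit. The SE is the log2 fold change divided by the square root of F. Exact permutation tests and intervals used scipy 1.17.1. On simulated counts with 200 genes changed 8-fold among 14721, edgeR recovered 27 in EB ICM against LB EPI, the fewest, and 53 in M against EB TE, the most, with 0 to 11 false calls per comparison. Genes were named by list, call, rank of rho or position beside MDK. MDK and all lists were chosen with earlier results of these data known. ICM and TE, or EPI and HYPO, of 1 embryo are paired by origin. The median correlation of their residuals over 7012 genes was 0.046 (EB), 0.029 (LB) and 0.069 (Sph), against -0.006, -0.024 and -0.05 between embryos. The embryo entered as a block in an alternative fit. The other alternatives were DESeq2 1.42.0, limma 3.58.1 on mean log2(TPM + 1), no TMM, no filter, filterByExpr, sums of at least 2 cells, all 7 groups in 1 model, each set of 4 pools alone, uncertain cells left out, and each embryo left out.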

Additional observations from a re-analysis of the deposited data

How the results depend on the processing

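No value for MDK changed sign under any alternative, and all 11 alternatives left LB HYPO against Sph HYPO short of the threshold. M minus EB TE passed it with no TMM (-2.52), DESeq2 (-2.56), no filter (-2.43), all 7 groups in 1 model (-2.38) and limma (-3.40). M minus EB TE also passed with sums of at least 2 cells (-2.51), filterByExpr (-2.42), uncertain cells left out (-2.39) and the morula cell without an embryo as its own embryo (-2.39), but not within either set of pools. EB ICM minus LB EPI passed with sums of at least 2 cells (-1.52) and the last 4 pools (-1.84). LB EPI minus Sph EPI passed with DESeq2 (0.88). The permutation test asks about MDK alone, which was chosen on these groups, so it is not set against the threshold over all genes. Its p was under 0.05 for M minus EB TE (-2.39), EB ICM minus LB EPI (-1.34) and LB EPI minus Sph EPI (0.73). In the first and last of these it was the smallest possible, which only restates that the sums did not overlap. With each embryo left out in turn, M minus EB TE was -2.62 to -2.26, EB ICM minus LB EPI -1.50 to -1.09, LB EPI minus Sph EPI 0.71 to 0.98 and LB HYPO minus Sph HYPO -2.06 to -1.29. The cause was not tested.

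The difference of EB ICM and M was 6.09 on mean log2(TPM + 1), and 4.64 to 5.07 with an embryo left out. ICM minus TE was 2.30 to 2.67 and LB EPI minus LB HYPO 2.99 to 3.36 with an embryo left out. Sph EPI minus Sph HYPO was 0.10 in the first 4 pools and 0.32 (without the Sph HYPO sum of embryo E) to 1.45 with an embryo left out. With the embryo as a block, the paired differences were 2.48, 3.14 and 1.02, and the block left 1 call for midkine partners, 1 for sulphate enzymes and 0 for retinoic acid genes. The counts of calls were 12, 11 and 10 with DESeq2, 5, 3 and 4 with all 7 groups in 1 model and 4, 6 and 5 with limma for the same lists, and 4 for sulphate enzymes with sums of at least 2 cells. Shares over all genes were not taken for these alternatives. Of the 8 genes most like MDK, 5 were shared under Pearson's r. Without TMM the all-gene median of the log2 fold change moved by 0.107 in EB ICM against LB EPI and by 0.126 in LB EPI against LB HYPO.

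Of the 41 sums, 6 rest on 1 cell, and Sph HYPO rests on 3 embryos.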

Other observations

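The morula cell that could not be placed in an embryo had 69 MDK counts of 2488103 counts on all genes, or 54.8 TPM, within the range of the other morula cells.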
